A study of Rattus norvegicus with 8 samples.

Results

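The liver enzymes that make heme and those that break it down were followed on 8 rat gene expression arrays. Members were the non-control probes whose gene name on the array was Alas1, Alad, Urod, Cpox, Ppox or Fech, for synthesis, or Hmox1, Blvra or Blvrb, for breakdown. These 9 genes were represented by 10 of the 30367 non-control probes, with Blvrb on 2 probes and every other gene on 1. All 10 member probes were well above background on all 8 arrays, so all of them were among the 20268 probes tested. Of the arrays, 4 held liver RNA of furan rats and 4 that of control rats, 1 animal to an array. The animals of both groups were male Fisher 344 rats aged 18 weeks. Furan, a volatile ring ether and rodent liver carcinogen, had been given by gavage at 8 mg per kg body weight per day, with dosing on 5 days of the week over 90 days, and the livers were taken 24 hours after the last dose. What vehicle, if any, the control rats received is not given in the sources used here, and nothing in them says that animals were pooled.

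Heme is an iron-holding ring that serves as the working group of cytochromes P450, catalase and the respiratory cytochromes. The liver is a major site of its production. Synthesis starts in the mitochondrion with Alas1, the rate-limiting enzyme of liver cells, passes through the cytosol by way of enzymes that include Alad, Uros and Urod, and returns to the mitochondrion for Cpox, Ppox and Fech, the last of which puts iron into protoporphyrin. Breakdown starts with Hmox1, the inducible heme oxygenase, which opens the ring to biliverdin and sets iron and carbon monoxide free. The biliverdin reductases Blvra and Blvrb then make bilirubin.

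A level is the log2 signal of a probe minus that of the 75th percentile of the array's non-control spots, so a level of 0 is that percentile. A probe was called where limma's adjusted p, taken over all 20268 tested probes, was below 0.05. The furan arrays were brighter before scaling, with a 75th percentile of 1486, 1596, 1456 and 1256 intensity units on furan arrays 1 to 4, against 827, 975, 1057 and 983 on control arrays 1 to 4. Each change is therefore a change relative to the array's own 75th percentile. Replicate spots scattered most on furan array 1 and control array 2, with median SDs of 0.17 and 0.13 on the log2 scale, and the remaining 6 arrays had 0.07 to 0.12. Slide 1 carried arrays 1 and 2 of each group, and slide 2 carried arrays 3 and 4. In whole liver RNA, fewer cells of a type and less RNA per cell cannot be told apart.

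After furan, 1 of the 10 member probes was called, that of Fech, which was lower, and the other 9 were not called in either direction. Among all 20268 tested probes 33.8% were called, 16.9% higher and 16.9% lower, and the median change was -0.03. None of the other 5 synthesis genes and none of the 3 breakdown genes passed the test, and of these 8 only Blvra had an unadjusted p below 0.05. Over the genes, each taken by its brightest probe, the median log2 change was 0.04 in synthesis and -0.02 in breakdown. The median size of a change, whatever its direction, was 0.36 over all tested probes, and 7 of the 9 genes had a smaller one.

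**Figure D1:**
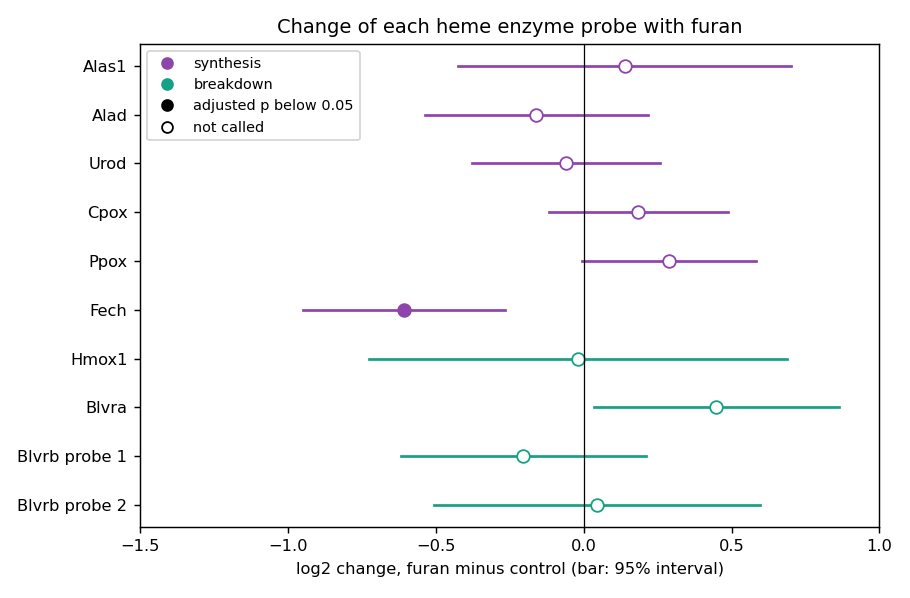
Log2 change of each of the 10 heme enzyme probes (furan minus control, n = 4 rats each) on the x axis, with the 95% interval of limma's fit as a bar, synthesis genes above breakdown genes. Fech, at -0.61, is the only filled point (adjusted p below 0.05). The bars of Hmox1 and Alas1 are the widest of the 9 brightest probes, and that of Blvra lies above 0 though its adjusted p of 0.0882 misses the threshold.

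Fech, ferrochelatase, is the terminal enzyme of the pathway. Its probe, shown because it carries the member change that was called, is the following sequence of 60 bases, placed by the array annotation at chr18:60680214-60680273 of rn4, minus strand.
Fech: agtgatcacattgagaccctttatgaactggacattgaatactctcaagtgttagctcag
The Fech level was 0.36, 0.21, 0.87 and 0.56 in furan livers 1 to 4, against 1.11, 1.17, 1.14 and 1.00 in control livers 1 to 4. Every furan liver lay below every control liver, a separation that 36.4% of all tested probes showed in one direction or the other and 18% showed in this direction. The means were 0.50 ± 0.29 in furan livers and 1.10 ± 0.08 in control livers (SD, n = 4 each). Fech was thus 1.52-fold lower after furan, with a log2 difference of -0.61 ± 0.15 (SE) and a limma adjusted p of 0.0159. The furan livers also scattered more than the control livers, over a range of 0.66 against 0.17. The SD between the 2 spots of the probe was 0.16 on furan array 1 and 0.04 to 0.08 on the other 7 arrays.

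The Fech call depended on scaling and on the number of arrays. Before scaling, the Fech signal was 1906, 1845, 2659 and 1852 intensity units in furan livers, against 1782, 2197, 2335 and 1963 in control livers, and the groups overlapped (log2 change -0.01, adjusted p = 0.948). Within slides the change was -0.86 on slide 1 (adjusted p = 0.077) and -0.36 on slide 2 (adjusted p = 0.241), and it was -0.54 without furan array 1 and control array 2 (adjusted p = 0.0726).

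A comparison within each array needs no scaling between arrays. The difference between Fech and Ppox, with its control mean set to 0, was -0.78, -1.19, -0.49 and -1.13 in furan livers, against -0.07, 0.14, 0.04 and -0.10 in control livers. Fech set against Cpox in the same way gave -0.62, -1.18, -0.47 and -0.90 in furan livers, against 0.07, 0.18, 0.03 and -0.27 in control livers. In both comparisons every furan liver lay below every control liver. These comparisons reuse the Fech values above and are no separate evidence of a fall. Ppox and Cpox also had the largest rises of the synthesis genes, which widens the differences. How many pairs of probes separate in this way was not examined. Set against Alas1, Alad or Urod, furan array 3 overlapped the controls. It stood at -0.36, -0.003 and -0.12, against lowest control values of -0.40, -0.22 and -0.19.

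Ppox and Cpox carry out the 2 oxidations just before Fech, and neither was called. Ppox stood at 0.06, 0.32, 0.28 and 0.61 in furan livers, against 0.10, -0.04, 0.03 and 0.02 in control livers. Furan liver 1 lay among the controls and the other 3 furan livers lay above all of them. The log2 change was 0.29 ± 0.13 (SE; 95% interval -0.01 to 0.58; limma adjusted p = 0.117). This change was called in 2 of 23 alternatives, without furan array 1 (0.37, adjusted p = 0.0437) and with no scaling (0.88, adjusted p = 0.000663). Cpox stood at 0.19, 0.59, 0.54 and 0.66 in furan livers, against 0.24, 0.20, 0.32 and 0.48 in control livers, with a change of 0.18 (interval -0.12 to 0.49; adjusted p = 0.314). Furan liver 1 again was the lowest of its group, and it lay below all 4 control livers.

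Alas1 varied widely between animals of the same group. Its level was 6.12, 6.47, 6.49 and 6.98 in furan livers, against 6.50, 6.84, 6.31 and 5.84 in control livers. The ranges were 0.86 in furan livers and 1.01 in control livers, and the groups overlapped over most of them. The change was 0.14 ± 0.25 (SE), with a 95% interval of -0.42 to 0.70 and a limma adjusted p of 0.698. It was -0.38 on slide 1 and 0.66 on slide 2, so the slides did not share a direction. With quantile normalisation it was 0.465 and not called (limma adjusted p = 0.104). The probe of Alas1 is unmapped in the array annotation.

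The proximal promoter of Alas1 is shown because NRF1, a factor known to act on Alas1, is one of the regulators measured below. The window holds 150 bases before and 20 after the gene start (RefSeq, GRCr8, chr8:115768623-115768792, minus strand), with matches to the NRF1 core motif, whose sixth base is free, in capitals.
Alas1 promoter: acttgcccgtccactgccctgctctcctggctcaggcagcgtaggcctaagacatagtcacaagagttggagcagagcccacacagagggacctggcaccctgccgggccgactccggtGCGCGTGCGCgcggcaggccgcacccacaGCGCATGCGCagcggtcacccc
The core was searched on both strands of windows of 300 bases. It matched from base -31 to -22 on the strand opposite to the gene and from -2 to 8 on both strands, since that match reads the same on each. Of 33469 promoter windows of this length, 4.25% held the core. Of the members, 7 of 9 had a promoter in the table, Cpox and Hmox1 being the exceptions, and none but Alas1 held this core. The antioxidant response core TGACNNNGC, found in 12.1% of all windows, matched among the members in Blvra alone, at -145 to -137 on the opposite strand of a window counted from a start inside the annotated gene. A match is a run of letters and not a measured binding site.

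Alad and Urod, the cytosolic enzymes among the members, were not called. Alad stood at 6.30, 6.57, 6.52 and 6.98 in furan livers, against 6.97, 6.81, 6.54 and 6.69 in control livers (change -0.16, interval -0.54 to 0.22, adjusted p = 0.485). Urod, which trims the side chains of uroporphyrinogen, stood at 3.80, 4.05, 4.01 and 4.40 in furan livers, against 4.17, 4.12, 4.00 and 4.21 in control livers (change -0.06, interval -0.38 to 0.26, adjusted p = 0.77). In both genes furan liver 1 was below and furan liver 4 above every control liver. With quantile normalisation the change of Alad turned positive, at 0.24, and was not called (limma adjusted p = 0.111).

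**Figure D2:**
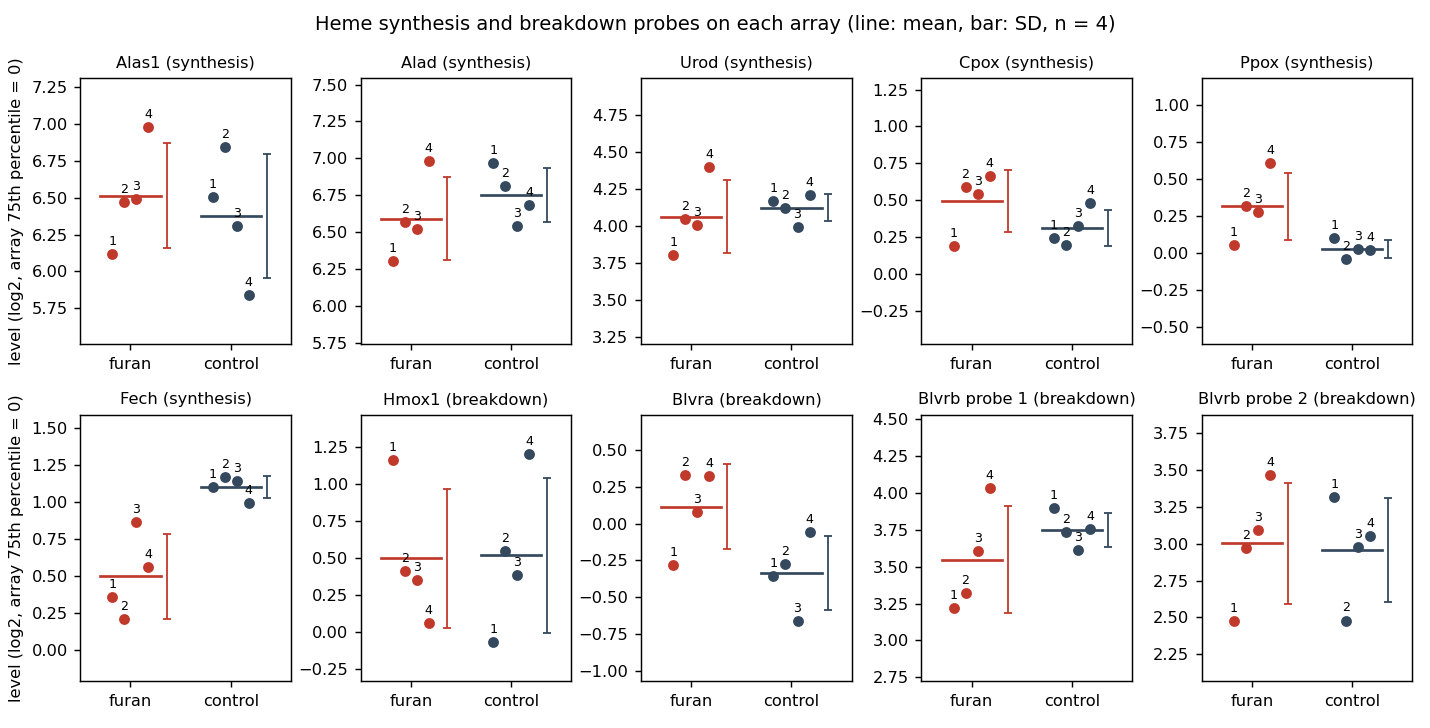
Level of each heme enzyme probe on each of the 8 arrays (log2, array 75th percentile = 0), 1 panel per probe, with furan livers left of control livers, array numbers beside the points, the group mean as a line and the SD as a bar. The 4 furan points of Fech lie below its 4 control points, and the groups overlap in the other panels.

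Of the enzymes that break heme down, Hmox1 did not separate the groups. Its probe was spotted 10 times on each array and lies at chr19:13969336-13969395 of rn4, plus strand. The probe sequence is shown because Hmox1 is the usual readout of heme and oxidant load.
Hmox1: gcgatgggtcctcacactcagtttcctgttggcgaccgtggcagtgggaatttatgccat
The Hmox1 level was 1.16, 0.41, 0.35 and 0.06 in furan livers, against -0.07, 0.55, 0.39 and 1.20 in control livers. The highest and the lowest of the 8 livers were both controls, and furan liver 1 nearly matched the highest. The means were 0.50 ± 0.47 in furan livers and 0.52 ± 0.53 in control livers (SD, n = 4 each), a change of -0.02 ± 0.31 (SE) with a limma adjusted p of 0.968.

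The interval of the Hmox1 change, -0.73 to 0.69, leaves room for a change in either direction that these 8 arrays cannot show. The 10 spots of an array had SDs of 0.04 to 0.17, below the SDs of 0.47 between furan arrays and 0.53 between control arrays. Spots of 1 array share their labelling and hybridisation, so the spread between arrays holds these steps as well as the animals. On slide 1 the furan livers were higher by 0.55, and on slide 2 the change was -0.59. In all 23 alternative analyses Hmox1 was not called, with changes between -0.59 and 0.57.

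Blvra, the main biliverdin reductase of adult liver, had the largest change among the members that were not called. The probe of Blvra aligns over 599 bases, chr3:114633853-114634451 of rn4, plus strand, and is shown because the change lay close to the threshold.
Blvra: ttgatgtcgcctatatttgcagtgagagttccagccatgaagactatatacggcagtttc
The Blvra level was -0.28, 0.33, 0.08 and 0.32 in furan livers, against -0.35, -0.27, -0.66 and -0.06 in control livers. Furan livers 2, 3 and 4 lay above all control livers, and furan liver 1 lay within them. The change was 0.45 ± 0.18 (SE; 95% interval 0.04 to 0.86), with an unadjusted p of 0.0369 and a limma adjusted p of 0.0882. It was called in only 3 of 23 alternatives. These were normexp background correction (0.45, adjusted p = 0.0312), furan array 1 left out (0.58, adjusted p = 0.0298) and no scaling (1.04, adjusted p = 0.0019). In the others the change stayed above 0 and was not called, with adjusted p up to 0.45.

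Blvrb reduces the fetal isomer of biliverdin and also flavins, and its probes gave changes of opposite sign, neither called. The brighter probe, at chr1:82546427-82546486 of rn4, plus strand, is shown as the one that stands for the gene.
Blvrb: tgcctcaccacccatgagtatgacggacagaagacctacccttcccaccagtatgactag
This probe gave 3.22, 3.32, 3.61 and 4.03 in furan livers, against 3.90, 3.73, 3.61 and 3.75 in control livers. It was present as 1 spot, so no spread between spots can be given. Its change was -0.20 ± 0.18 (SE; interval -0.62 to 0.21; adjusted p = 0.416), and that of the second probe was 0.04 ± 0.24 (interval -0.51 to 0.60; adjusted p = 0.906). On both probes furan liver 1 was the lowest and furan liver 4 the highest of the furan livers.

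Synthesis and breakdown were then set side by side as the median, over the genes of each, of an array's difference from the control mean. For the 6 synthesis genes this median was -0.29, 0.01, 0.00 and 0.31 in furan livers, against 0.06, 0.03, -0.03 and -0.04 in control livers. For the 3 breakdown genes it was 0.05, -0.10, -0.14 and 0.28 in furan livers, against -0.02, 0.03, -0.14 and 0.28 in control livers. Breakdown minus synthesis was 0.34, -0.11, -0.14 and -0.03 in furan livers, against -0.08, 0.00, -0.10 and 0.32 in control livers. Furan array 1 went one way and the other 3 furan arrays the other way, and control array 4 lay near furan array 1. The furan mean of this difference was 0.01 ± 0.22 (SD, n = 4) and was not tested. It was -0.13 without furan array 1 and control array 2 and -0.22 with quantile normalisation. The control mean lies near 0 by construction, since levels were centred on the controls. The synthesis median spread over a wider range in furan than in control livers, with SDs of 0.25 and 0.05.

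Furan array 1 was the lowest of the furan arrays for 7 of the 9 genes, and furan array 4 the highest for 6. The exceptions at furan array 1 were Fech, which was lowest on furan array 2, and Hmox1, which was highest there. Furan array 1 is also the array with the largest scatter between replicate spots. It and control array 2 were also the highest of their groups in some biliary markers, but not in all. Krt19, a keratin of bile ducts named after its values were seen, was 0.71, -1.72, -3.62 and -3.52 in furan livers, against -3.76, 0.32, -3.28 and -4.33 in control livers. Sox9, another biliary marker, stood at -3.53 on control array 2, against -3.66, -3.42 and -3.40 on control arrays 1, 3 and 4. The matrix gene Col1a2 was also highest in its group on furan array 1 (3.31) and on control array 2 (2.07). The part of the scatter and of these markers in the order was not tested.

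Levels of some members moved together across the 8 arrays. Of 36 pairs of members, 3 had a Pearson correlation with a Benjamini-Hochberg adjusted exact permutation p below 0.05, and they were the 3 pairs among Alad, Urod and Blvrb. Alad and Blvrb had r = 0.908 (two-sided exact permutation p = 0.00208, adjusted p = 0.0396; Spearman rho = 0.905, p = 0.00456, adjusted p = 0.0821). Alad and Urod had r = 0.897 (exact permutation p = 0.00268, adjusted p = 0.0396; rho = 0.905, p = 0.00456, adjusted p = 0.0821), and Urod and Blvrb r = 0.885 (exact permutation p = 0.0033, adjusted p = 0.0396; rho = 0.881, p = 0.00724, adjusted p = 0.0869). Without the 2 arrays farthest from the median of the first gene the r was 0.808, 0.905 and 0.644 in the same order. Alas1 and Hmox1, the entry steps of synthesis and breakdown, had r = -0.747 (exact permutation p = 0.0322, adjusted p = 0.166; rho = -0.690, p = 0.0694, adjusted p = 0.357), and -0.464 without the 2 arrays. The permutations moved arrays freely between furan and control, so shifts between groups enter these values. With group means taken out, r was 0.893 for Alad with Blvrb, 0.906 for Alad with Urod and 0.900 for Urod with Blvrb. Ppox then had r = 0.859 with Alad, 0.917 with Urod and 0.876 with Blvrb, so the correlation was not confined to these 3 genes. The r values without group means were not tested. All pairs share the scaling of their arrays.

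The genes whose levels over the 8 arrays were most like those of Alas1 were Arhgef19 (r = 0.955), Fthl17b (r = 0.946) and Rnf144a (r = 0.926). Those most like Hmox1 were Fgd2 (r = 0.956), Mak16 (r = 0.952) and Sla (r = 0.951). These are the highest correlations among all named tested probes, over arrays that share their scaling, and none of the 6 genes was called.

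Around the members, 104 other genes of heme, iron, bile pigment and oxidant handling were listed and 96 were tested, each by its brightest probe. Of these 96, 24 were higher, 17 lower and 55 not called, with a median change of 0.07. Among all 12910 genes, 32.7% were called, 15.4% higher and 17.3% lower. The lists were drawn up with earlier results of these arrays known.

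No synthesis enzyme outside the members was called. Uros, which closes the tetrapyrrole ring, changed by -0.03 (adjusted p = 0.818). Alas2, the erythroid counterpart of Alas1, was 1.41, 0.66, 1.54 and 1.19 in furan livers, against 1.56, 2.12, 3.28 and 1.29 in control livers, a change of -0.87 with an adjusted p of 0.14. Control liver 3 was far above the rest. The summed level of 12 other erythroid markers was 353 to 472 in furan livers and 455 to 937 in control livers, in multiples of the 75th percentile, and the ranges overlapped. Of the 8 that were tested 1 was lower, the anion exchanger Slc4a1 (-1.14, adjusted p = 0.0193), and the other 7 were not called. The part of red cells in the change of Fech, which red cell precursors also use, was not tested.

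Of 14 mitochondrial partners of synthesis, 2 were higher, 1 was lower and 11 were not called. Tspo, an outer membrane protein that binds porphyrins, rose by 1.65 on the log2 scale (adjusted p = 0.00113). Slc25a28, a mitochondrial iron importer, rose by 0.39 (adjusted p = 0.0143), and its second probe rose as well, by 0.55. Abcb10, an inner membrane transporter known in mouse red cell precursors to stabilise the iron importer Slc25a37 and to associate with ferrochelatase, fell by 0.68 (adjusted p = 0.00337). Its level was -0.90, -0.93, -0.59 and -0.75 in furan livers, against -0.04, -0.23, -0.08 and -0.12 in control livers. The groups did not overlap, as on 18% of all tested probes in this direction. Pgrmc1, a heme-binding partner of ferrochelatase, changed by -0.05 and was not called (adjusted p = 0.83).

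Genes of heme and haemoglobin uptake, transport and export changed in both directions, with 3 of 8 tested genes higher and 4 lower. The heme exporter Abcg2 rose by 1.66 (adjusted p = 0.00233), the heme-binding transporter Flvcr2 by 1.48 (adjusted p = 0.00374) and the endosomal heme transporter Slc48a1 by 1.23 (adjusted p = 0.00336). The plasma scavengers made by hepatocytes were lower: hemopexin, Hpx, stood at 6.93, 6.56, 6.71 and 6.68 in furan livers, against 8.30, 7.64, 7.42 and 7.94 in control livers, a fall of 1.10 (adjusted p = 0.0041). Haptoglobin, Hp, fell by 0.66 (adjusted p = 0.00413), though its change was -0.01 and not called with quantile normalisation. Lrp1, the hemopexin receptor, fell by 1.30 (adjusted p = 0.00587). Slc46a1, a folate and heme transporter, fell by 0.54 (adjusted p = 0.0263), a call that was lost in 11 of 22 alternatives.

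Of 6 tested genes of bilirubin formation and disposal outside the members, 2 were higher and 3 lower. Slco1a1, Slco1a4 and Slco1b2, organic anion carriers of the blood side, fell by 1.57, 1.32 and 1.13 (adjusted p = 0.00174, 0.00456 and 0.0031). Abcc2, which exports conjugated bilirubin into bile, rose by 1.00 (adjusted p = 0.00354), and Abcc3, which exports conjugates back to blood, rose by 3.53 (adjusted p = 9.47e-05). Abcc3 was well above background on 3 of the 4 control arrays, and with normexp its change was 1.02. Hmox2, the constitutive heme oxygenase, changed by 0.18 (adjusted p = 0.321).

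Of 11 genes that handle the iron set free from heme, 1 was higher and 2 were lower, a share near the 32.7% called over all genes. The transferrin receptor Tfrc rose by 0.82 (adjusted p = 0.00284). The ferritin light chain Ftl1 fell by 0.42 (adjusted p = 0.0352), but the call was lost in 13 of 22 alternatives and quantile normalisation gave a called rise of 0.25. Slc11a2, an iron importer, fell by 0.37 on its brightest probe (adjusted p = 0.0295), was lost in 11 of 22 alternatives, and changed by -0.02 and 0.08 on 2 other probes. The ferritin heavy chain Fth1 changed by 0.05 (adjusted p = 0.789), and it too was called higher with quantile normalisation (0.68, adjusted p = 0.00299).

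Among 15 tested genes that use heme, 2 were higher, 2 lower and 11 not called. Cyp2c11, the abundant male-specific P450, fell by 2.13 (adjusted p = 0.000619), and catalase, Cat, by 0.81 (adjusted p = 0.00865). Cox15, which makes heme a, rose by 0.52 (adjusted p = 0.00488), and Cyb5b, the outer membrane cytochrome b5, by 0.84 (adjusted p = 0.00201), with a change of -0.18 on a second Cyb5b probe (adjusted p = 0.29). Cyp2e1, the P450 that oxidises furan, changed by -0.34 and was not called (adjusted p = 0.242). Cyp2c11 is also one of 10 hepatocyte markers. Of the other 9 markers 8 were called lower, and the summed level of these 9 was 883 to 1130 in furan livers and 1390 to 1680 in control livers. These 9 were not examined with quantile normalisation. Under it Ftl1, about as bright as the brightest of them, went from -0.42 to 0.25.

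**Figure D3:**
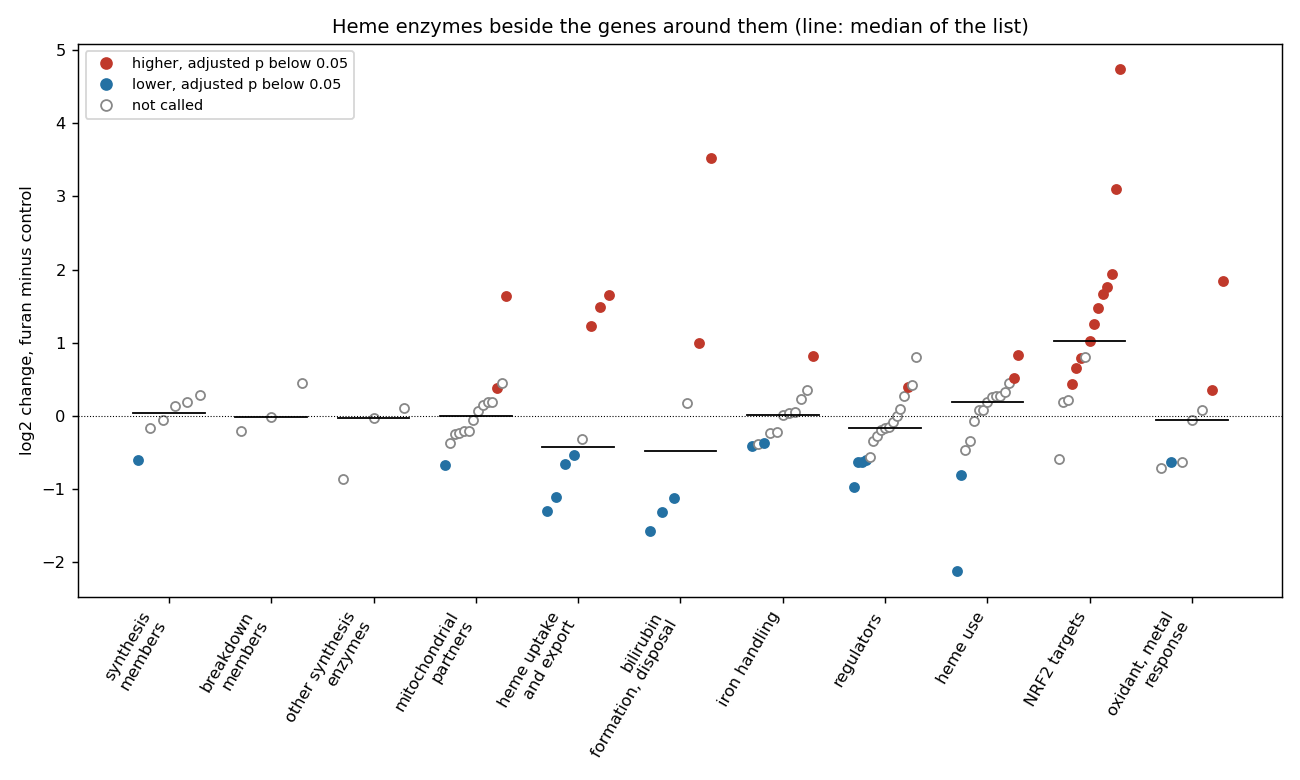
Log2 change (furan minus control, y axis) of the member genes and of the 9 surrounding lists (x axis), 1 point per tested gene, red where higher and blue where lower at an adjusted p below 0.05, open where not called, with the list median as a line. Fech is the only filled point of the 2 member columns, while 11 of 15 NRF2 targets are red.

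Other targets of NRF2 were mostly higher. NRF2, made from Nfe2l2 and held back by Keap1, is the oxidant-sensing factor that is known to switch on Hmox1. Of 15 other tested NRF2 targets, 11 were higher, 0 lower and 4 not called, with a median change of 1.02. Of the 11, 1 was well above background on only 3 of the 4 control arrays and entered the test through the furan arrays. Gstp1, a glutathione transferase, rose by 4.74 (adjusted p = 0.000971) and the quinone reductase Nqo1 by 1.77 (adjusted p = 0.00169). On both genes every furan liver lay above every control liver, a separation that 18.4% of all tested probes showed in this direction. Gclc, the catalytic subunit of glutathione synthesis, rose by 0.79 (adjusted p = 0.00643), and Ephx1, the microsomal epoxide hydrolase, by 1.48 (adjusted p = 0.000238). The probes of Gsta3, a glutathione transferase with close relatives, disagreed, with 0.22 on the brightest (adjusted p = 0.443) and a called 4.31 on the other. The NRF2 list was among the results already known when it was drawn up, so its direction is no independent evidence.

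**Figure D4:**
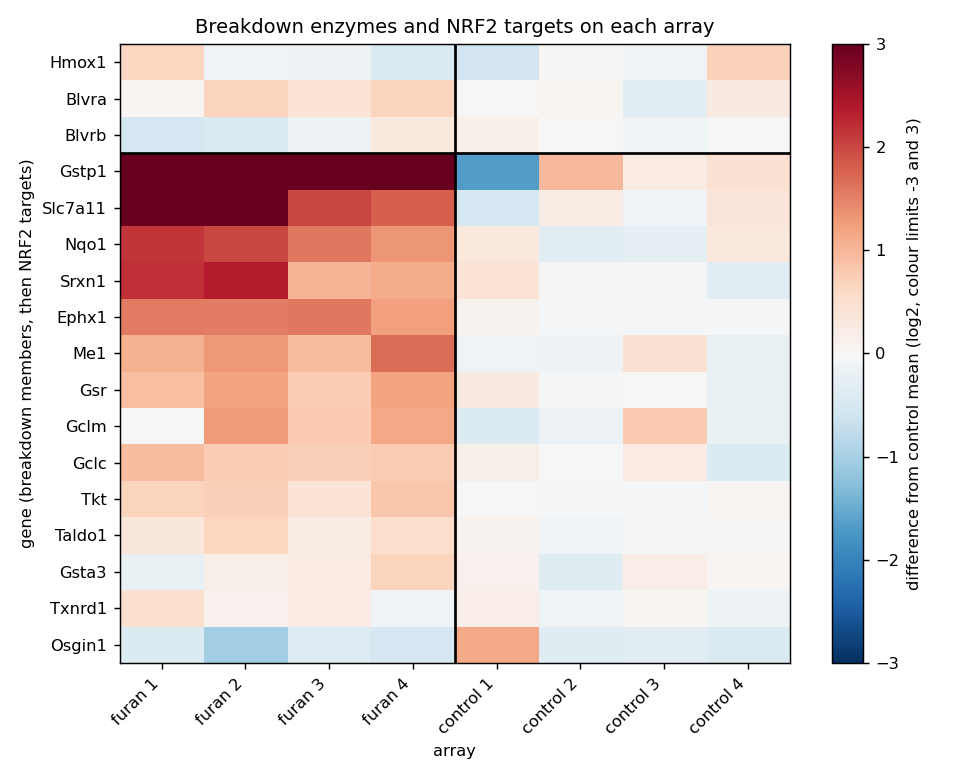
Level minus the control mean (log2, colour from -3 to 3) for the 3 breakdown members and 14 of the 15 NRF2 targets (rows) on each array (columns, furan left of control). Most NRF2 targets are red on all 4 furan arrays, while Hmox1 is red on furan array 1 and control array 4 and blue on control array 1 and furan array 4.

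Of 17 tested regulators of Alas1 and Hmox1, 1 was higher and 4 were lower, again near the 32.7% called over all genes. Nfe2l2 changed by 0.42 (adjusted p = 0.148; called only with normexp, at 0.48 with adjusted p = 0.0449) and the stress factor Atf4 by -0.27 (adjusted p = 0.112). Hnf4a and Rxra, nuclear receptors of the hepatocyte, fell by 0.98 (adjusted p = 0.00755) and 0.63 (adjusted p = 0.00824). Nr1d1, the heme-sensing clock receptor Rev-erb alpha, fell by 0.63 (adjusted p = 0.00944), and Mafg, a small partner of NRF2 and of the heme-sensing repressor Bach1, by 0.61 (adjusted p = 0.00743). Hsf1, the heat shock factor, rose by 0.39 (adjusted p = 0.013). Nrf1, named here for the promoter match and after its values were seen, changed by -0.19 (adjusted p = 0.349). It was called lower with normexp (-0.37, adjusted p = 0.0075) and without furan array 1 (-0.32, adjusted p = 0.0367).

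Of 7 tested genes of the oxidant and metal response beside Hmox1, 2 were higher and 1 lower. Hspb1, a small heat shock protein, rose by 1.84 (adjusted p = 0.00337), and Txn1, thioredoxin, by 0.36 (adjusted p = 0.0386), a call lost in 13 of 22 alternatives. Sqstm1, an autophagy receptor, fell by 0.63 (adjusted p = 0.0117), on both of its probes. The metallothioneins Mt1 and Mt2A had changes of -0.72 (adjusted p = 0.185) and -0.62 (adjusted p = 0.25) and were not called. Without control array 3 both were called lower, at -1.04 (adjusted p = 0.0498) and -1.01 (adjusted p = 0.027), and Mt1 was also called on slide 1 alone (-1.44, adjusted p = 0.0454).

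Markers of cell types and of proliferation differed with furan in some lists and not in others. Liver macrophages, which clear aged red cells and hold much Hmox1, had 0 of 12 tested markers called by limma, and 0 below an unadjusted p of 0.05, and the summed marker level was 31.7 to 35.1 in furan livers and 30.1 to 48.5 in control livers. Their brightest marker, Clec4f, changed by -0.22 (adjusted p = 0.428). All 7 proliferation markers were higher, with a median change of 3.07. One of them, Aurkb, was well above background on only 1 of the 4 control arrays, so it entered the test through the furan arrays. Of 7 tested biliary markers 3 were higher, Epcam, Cldn7 and Sox9 (1.79, 1.54 and 0.48). The other 4 were not called, and their changes went in both directions. Of 20 tested stellate, lymphocyte and endothelial markers, each by its brightest probe, limma called 0, and 1 was below an unadjusted p of 0.05. A second and much dimmer probe of the stellate marker Lrat (mean level -7.05) was called higher (1.37, limma adjusted p = 0.0288). The brightest Lrat probe changed by 0.59 (adjusted p = 0.137). Control array 1 was low in some endothelial and macrophage markers, named after their values were seen, but not in all. The endothelial receptor Kdr stood at 3.22 to 3.62 in furan livers, against 2.29 on control array 1 and 4.04 to 4.24 on the other control arrays. The mannose receptor Mrc1 stood at -3.56 to -3.15 in furan livers, against -5.05 on control array 1 and -3.01 to -2.53 on the other control arrays. The endothelial marker Cdh5 was not low there, at -2.33 against -2.28, -2.48 and -2.45 on control arrays 2 to 4. Nor was the macrophage marker Timd4, at -1.46 against -1.53, -2.15 and -1.24. Control array 1 was also the lowest for Hmox1, whose change without it was -0.21 (adjusted p = 0.621). The part of these shifts in the heme enzyme values was not tested.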

How the data were processed

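Liver RNA was labelled with Cy3 and hybridised to Agilent 1-colour arrays of 62976 spots. Spot signals came from Agilent Feature Extraction 10.7, per the submitters' processing notes, and the deposited scanner files give a background-subtracted processed intensity per spot, per the file headers. The authors' deposited series table of intensity values equalled that signal with every array brought to 1000 at the 75th percentile (largest log2 difference 0.00013).

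From the deposited intensity, log2 values minus each array's log2 75th percentile of 58717 non-control spots were computed. Non-uniform and outlier spots, as marked in the files, were dropped, and spots of a probe were averaged. The 20268 probes that were well above background on every array of furan rats, of control rats or of both were tested with limma 3.58.1 in R 4.3.3 (lmFit, eBayes, two-sided, Benjamini-Hochberg over all of them), using 4 furan and 4 control arrays. Where a gene had several tested probes, the brightest stood for it. No spot was saturated, and the number of arrays limits the precision. In simulated data of the same 20268 probes, 100 were changed 4-fold and 100 were changed 2-fold, with noise drawn independently for each probe. There, 86% of 4-fold and 63% of 2-fold changes were recovered and 0.0598% of unchanged probes called. Far fewer probes changed in the simulation than the 33.8% called in the data, so these shares are not the power of this comparison. Correlations between members were tested by exact permutation in Python.

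Groups and replicate numbers come from the sample labels. Of the 30367 probes, 18438 took a current symbol through their RefSeq accession and 21606 had a symbol in all. Probe positions are those of the array annotation on rn4, and no exon or UTR annotation of that build was used here. Promoters are from RefSeq, GRCr8. The members and lists were chosen with earlier results of these data known. Named genes were all members, called genes of the lists, up to 3 uncalled genes of highest level in a list, called markers or else the brightest one, and the 3 genes most like Alas1 or Hmox1, except a few that are not reported here. Alternatives covered background correction, scaling, filters, marked spots, the variance model, slide and replicate blocks, single slides and left-out arrays.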

Additional observations from a re-analysis of the deposited data

Results flagged for a closer look

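No member gene had an array far from the others of its group. Over the members and the listed genes around them, 214 groups of 4 arrays were examined, and 9 values stood apart from the rest of their group by more than Dixon's 95% limit. Chance gives about 1 in 20 groups, so such values were no more frequent than chance gives.

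In furan livers, the Abcc3 level on array 1 (-3.02) was above the other 3 (-3.50 to -3.43), the Ephx1 level on array 4 (4.62) was below the other 3 (4.94 to 4.99), and the Osgin1 level on array 2 (0.776) was below the other 3 (1.32 to 1.43). In control livers, array 1 stood apart for 4 genes. Its levels of Ephx1 (3.51), Osgin1 (2.97) and Pgrmc1 (5.23) were above, and that of Slc48a1 (-2.21) was below, the other 3. The Hccs level on control array 2 (-2.10) was below the others (-1.67 to -1.60), and the Me1 level on control array 3 (2.27) was above the others (1.59 to 1.70).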

How the results depend on the processing

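The Fech change stayed below 0 in all 23 alternatives, though only at -0.01 with no scaling, and was called in 19 of them. Some alternatives could not alter the Fech values and are no separate checks. These include the authors' series table, the marked spots kept and the brightest probe of each gene. No member probe was called on either slide alone, where each group has 2 arrays and the whole array gave 322 higher and 207 lower calls on slide 1 and 939 and 678 on slide 2. Synthesis calls were then 0 higher and 0 lower, and the listed genes around the members gave 6 higher and 4 lower on slide 1 and 12 and 4 on slide 2. Without control 2 and furan 1, chosen for their noisy spots, 0 synthesis probes were lower. Leaving out 1 array at a time gave 0 to 1 synthesis probes higher, 0 to 1 breakdown probes higher and 2217 to 3403 probes lower in all, the lowest without furan 2; Fech stayed called, between -0.73 and -0.51.

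Normexp gave 7102 lower calls in all and 1 breakdown probe higher, with 30.2% of the calls higher, against 50% without it, and moved the median of all probes to -0.19. Median scaling, chosen after seeing the data like the next, gave 2038 higher calls (43.1% of the calls higher, median -0.10). With no scaling the median of all probes was 0.56, with 10405 higher and 584 lower calls, 5 synthesis probes higher, 0 lower and 3 breakdown probes higher. Alad (0.43), Urod (0.53) and Blvrb (0.39) then turned positive, which follows from the brighter furan arrays. Quantile normalisation gave a positive Ftl1 (0.25) and moved breakdown minus synthesis in furan livers to -0.22. The synthesis median went from 0.01 to 0.20 there, and the breakdown median from 0.02 to -0.02. Alas1 then changed by 0.465 and Alad by 0.24, a turn in sign for Alad, and neither was called. The cause was not tested.

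Same-numbered furan and control arrays deviated together with correlations of -0.30 to 0.28, and 2 of 4 furan arrays correlated best with the control array of their own number, so the numbers were not taken as pairs. With the replicate block, 2638 probes were higher and 2472 lower, Fech stayed at -0.61 (adjusted p = 0.0428), and the listed genes gave 21 higher and 14 lower. With 4 rats a group, differences within the spread of the animals cannot be shown.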
